A study of Mus musculus with 8 samples.

Results

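The imprinted domain of H19 and Igf2 on mouse chromosome 7 was described here by the CTCF ChIP-seq reads at its sites. Members were all sites of the deposited table with their centre between 149.7 and 149.9 Mb (mm9), a window that holds H19, the control region upstream of it, Igf2 and Ins2. This gave 16 of the 104008 sites in the table. CTCF, which binds DNA through its zinc fingers, marks insulators and the ends of chromatin loops. H19 encodes a noncoding RNA that also carries the microRNA Mir675, Igf2 encodes a growth factor of fetal life, and Ins2 encodes insulin.

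H19 and Igf2 share enhancers but are expressed from opposite parental chromosomes. On the maternal chromosome CTCF binds the unmethylated control region between both genes and insulates Igf2 from the enhancers, which then act on H19. On the paternal chromosome the control region is methylated at CpG, CTCF does not bind, and Igf2 is expressed. The reads here were not assigned to a parental allele, so a site's reads sum over both chromosomes.

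The cells were mouse embryo fibroblasts of 1 line, immortalised with an shRNA against p19Arf (iMEF), homozygous for a floxed Ash2l allele (Ash2l fl/fl) and expressing Cre-ER. Ash2l is a core subunit of the complexes that methylate lysine 4 of histone H3. Both groups carry these alleles. The +HOT group received 4-hydroxytamoxifen at 5 nM for 7 days, which activates Cre-ER to remove exon 4 of Ash2l, and the -HOT group received the ethanol vehicle. The -HOT cells were passaged again on a later day, whereas the +HOT cells, which had stopped dividing, only received new medium. A change upon HOT can therefore not be told apart from a change with the arrest. The series holds 8 samples, 4 CTCF immunoprecipitations (2 per group) and 4 inputs, which were not analysed. The deposited columns number the libraries R1 and R3.

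Site reads totalled 3126722 to 4221752 in the -HOT libraries and 7653295 to 9280701 in the +HOT libraries, so the -HOT values carry the larger counting error. The libraries are technical replicates in the study's own words, so every p-value below reflects the spread among them and not among cultures. Site values are given as normalised reads, which are counts divided by the effective library size (site reads multiplied by the TMM factor) and rescaled to the mean of the 4 libraries. Called gained or lost means an edgeR adjusted p below 0.05, adjusted over all 99560 tested sites, and a log2 fold change (log2FC, +HOT over -HOT) above 1 or below -1. The reads cannot show whether the cells were fibroblasts, since CTCF binding carries no defining marker. The site over exon 4 of Ash2l held 17.7 and 11.9 normalised reads in -HOT and 6.51 and 14.8 in +HOT (log2FC -0.54, 95% interval -1.59 to 0.51, edgeR adjusted p = 0.543), so at this depth the deletion was not detectable there.

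The sites fell into 4 groups along the domain. Downstream of H19, 6 sites lay at or near Mrpl23, which encodes a mitochondrial ribosomal protein, and Nctc1, a noncoding transcript. The 3 sites just upstream of H19 comprised 1 at 1.11 kb and the 2 of the control region, at 2.42 and 3.77 kb. A single site stood 32.5 kb upstream in the stretch between H19 and Igf2, and the next lay 48.8 kb further on. The last 6 sites lay at Igf2 and on the side towards Ins2. By the position of the centre, 9 sites were intergenic, 4 lay in an intron, 2 in a UTR and 1 in an exon of Nctc1. Site length ranged from 177 to 954 bp. Of the 16 sites, 11 were stronger than the median site of the table and 3 were stronger than 90% of its sites.

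**Figure D1:**
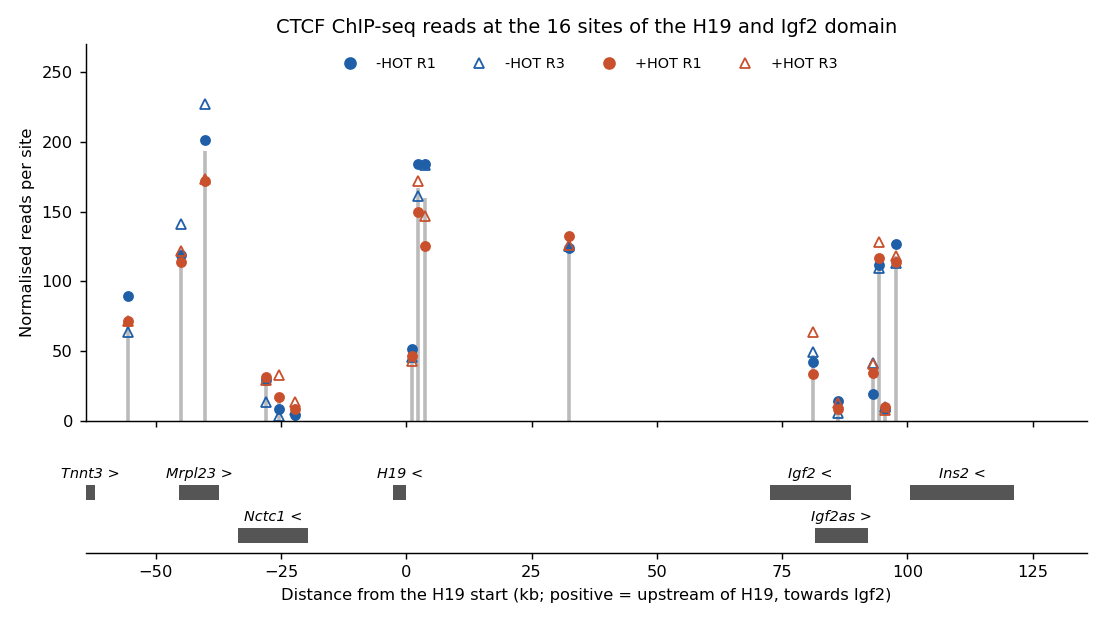
Normalised CTCF reads (vertical axis) at each of the 16 sites against the distance of its centre from the H19 start (horizontal axis, kb, positive towards Igf2). Circles and triangles are single libraries (blue -HOT, red +HOT), grey bars are means over the 4 libraries, and the lower panel shows the annotated genes with their direction. The highest bars stand in Mrpl23 (193 normalised reads) and in the control region (167 and 160).

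The control region is shown first by its sequence, because its CTCF matches hold a pattern that few other sites of the table hold. A matrix of 20 positions was built from the strongest sites of the table itself and searched on both strands, with a threshold passed by 5% of shuffled sites. Of all sites, 85.7% held a match, and 14 of the 16 sites of the domain did. Each control region site held 1 match, on the minus strand, with a score of 7.64 (proximal) or 8.77 (distal). These lay near the threshold of 6.99, and neither passed the stricter threshold of 11.5, which 1% of shuffled sites passed. Both matches shared the 16 bases TGCCGCGTGGTGGCAG. Shortened and opened at 3 bases this became CCGCNNGGNGGCAG, a pattern chosen after the sequences of the region were seen, and it was then searched on both strands. It occurred 4 times in the domain, in each case on the minus strand within a control region site, 2 copies per site. The copies overlap the matrix matches where both occur. Among all sites of the table, 149 (0.143%) held the pattern. Only 2 sites held 2 or more copies, and these were the control region sites, from which the pattern was taken.

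The 4 copies are given on the minus strand, 5′ to 3′, with the pattern in capitals and 15 bases on each side (mm9, NCBIM37).
Copy 2173 bp upstream of the H19 start, chr7:149766199-149766242: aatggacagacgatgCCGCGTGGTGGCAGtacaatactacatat
Copy 2628 bp upstream, chr7:149766654-149766697: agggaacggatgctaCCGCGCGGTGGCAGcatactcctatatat
Copy 3654 bp upstream, chr7:149767680-149767723: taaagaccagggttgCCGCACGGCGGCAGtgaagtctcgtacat
Copy 3898 bp upstream, chr7:149767924-149767967: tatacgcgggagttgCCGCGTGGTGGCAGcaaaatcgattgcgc
The capitals held 2 or 3 CpG dinucleotides in each copy, of which the fixed bases CCGC of the pattern give 1 by construction. The matrix match of each control region site held 2. Among all sites with a matrix match, the best match held at least 1 CpG in 33.3% and at least 2 in 6.09%, with a median of 0. Elsewhere in the domain, the best match held 3 at a start of Igf2 and 2 at the site 32.5 kb upstream. CpG is the dinucleotide whose methylation marks the paternal control region. Methylation was not measured here.

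The distal control region site held both of its copies within 300 bases, which are given whole to show their spacing and the CpG between them, with the copies in capitals (minus strand, 14 CpG).
Distal control region, chr7:149767674-149767973: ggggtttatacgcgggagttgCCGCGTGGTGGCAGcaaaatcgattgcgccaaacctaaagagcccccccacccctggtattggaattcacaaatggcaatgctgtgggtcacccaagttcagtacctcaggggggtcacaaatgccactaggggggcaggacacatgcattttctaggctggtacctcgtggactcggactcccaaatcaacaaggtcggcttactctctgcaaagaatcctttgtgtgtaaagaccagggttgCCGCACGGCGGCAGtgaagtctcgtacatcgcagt
The hexamer TGCCGC, the motif of ZFP57, a protein that keeps imprinted regions methylated, was searched on both strands. In the central 300 bases of each site, the same length throughout, it occurred 3 times at the distal control region site and at no other site of the domain, while 4% of all sites held it there. Over whole sites, which differ in length, it occurred 3 times in each control region site and once in the Mrpl23 promoter site, and 5.49% of all sites held it. At the distal site all 3 overlap the copies of the CTCF pattern shown above, by the bases CCGC or wholly within the capitals. There the hexamer is therefore not a motif separate from that pattern. At the proximal site, only the copy 2173 bp upstream overlaps a hexamer, so the other hexamers of that site lie outside the copies. A match is a description of the letters only.

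CTCF reads were high at both control region sites in all 4 libraries. The proximal site (chr7:149765988-149766941, 954 bp, intergenic, centre 2416 bp upstream of the H19 start) held 184 normalised reads in -HOT R1, 161 in -HOT R3, 150 in +HOT R1 and 172 in +HOT R3. The groups overlapped. The means were 173 ± 16.01 in -HOT and 161 ± 15.4 in +HOT (SD, n = 2 libraries each), with a log2FC of -0.12 (SE 0.13, 95% interval -0.38 to 0.13, edgeR adjusted p = 0.574). It was stronger than 92.1% of all sites.

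The distal site fell modestly. It lies 3770 bp upstream of the H19 start (chr7:149767498-149768139, 642 bp, intergenic) and held 184 (R1) and 183 (R3) normalised reads in -HOT against 126 (R1) and 147 (R3) in +HOT. Both +HOT libraries were below both -HOT libraries, which was so for 27.2% of all tested sites. The means were 184 ± 0.528 and 136 ± 14.8 (SD, n = 2 each), a log2FC of -0.44 (SE 0.13, 95% interval -0.70 to -0.18, edgeR adjusted p = 0.0115). The site passed the adjusted p and not the fold threshold, so it was not called lost. It was the 1 of 14 tested sites of the domain that was lower at the adjusted p, against 9.08% of all tested sites.

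The fall of the distal site depended on the scaling. When all tested sites were split into 10 equal groups by strength, both control region sites fell in the strongest, where the median log2FC was -0.31 with a middle 50% from -0.42 to -0.19. With scaling along site strength, which removes such a trend, the distal site had a log2FC of -0.25 (edgeR adjusted p = 0.218) and the proximal site 0.09 (edgeR adjusted p = 0.732). With DESeq2 the distal site had a log2FC of -0.46 and an adjusted p of 0.0975. In edgeR its adjusted p stayed below 0.05 with DESeq2 size factors (0.00793), total counts (0.025) and a replicate block (0.00403). Without -HOT R1 the log2FC stayed at -0.45 with an edgeR adjusted p of 0.0963, and without +HOT R1 it was -0.32 with 0.123.

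**Figure D2:**
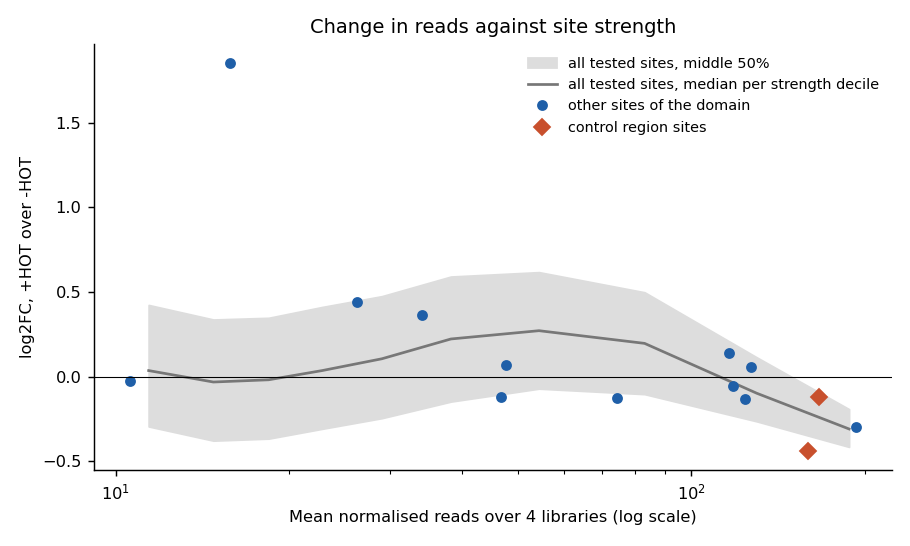
The log2FC of each of the 14 tested sites of the domain (vertical axis) against its mean normalised reads over the 4 libraries (horizontal axis, log scale). The grey line and band are the median and the middle 50% of all tested sites in 10 groups of equal size by strength. The control region sites (red) lie above and below the median of the strongest group, which is -0.31, and the gained site lies far above the band at 1.85.

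Whether the proximal and the distal site differed in their change was tested by their ratio, which needs no scaling between libraries. The distal site held 1.00 (R1) and 1.14 (R3) times the reads of the proximal site in -HOT and 0.839 (R1) and 0.855 (R3) times in +HOT. The +HOT ratios were both lower, and the two-sided exact permutation p over the 4 libraries was 0.33, the smallest that 2 against 2 libraries can give. Summed over both sites the control region held 368 and 344 normalised reads in -HOT and 276 and 318 in +HOT (356 ± 16.5 and 297 ± 30.2, SD, n = 2 each), a log2 ratio of -0.26 (two-sided exact permutation p = 0.33). With scaling along site strength this ratio was -0.05.

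The part of the CTCF reads that fell in the domain was compared next. Its 16 sites took 0.0213% and 0.0210% of site reads in -HOT and 0.0197% and 0.0218% in +HOT (0.0211 ± 0.000211 and 0.0207 ± 0.00153, SD, n = 2 each). The groups overlapped, with a two-sided exact permutation p = 1, in a test that could not go below 0.33. Within the domain the control region took 27.9% and 26.4% of the reads in -HOT and 23.2% and 24.4% in +HOT, which did not overlap (two-sided exact permutation p = 0.33).

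The nearest site to the H19 promoter (chr7:149764959-149765355, intergenic, centre 1109 bp upstream) was weaker than both control region sites. It held 51.5 and 45.8 normalised reads in -HOT and 46.9 and 42.9 in +HOT. The groups overlapped (log2FC -0.12, SE 0.25, 95% interval -0.61 to 0.37, edgeR adjusted p = 0.802). No site of the table overlapped the H19 gene body (149761434 to 149764048, minus strand).

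The site between H19 and Igf2 lay 32452 bp upstream of H19 (chr7:149796081-149796920, 840 bp) and far from any start site. Its values were 124 and 125 normalised reads in -HOT and 132 and 126 in +HOT, so that the +HOT libraries were both higher, the lower of them only just. The means of 125 ± 1.30 and 129 ± 4.14 (SD, n = 2 each) gave a log2FC of 0.06 (SE 0.15, 95% interval -0.23 to 0.35, edgeR adjusted p = 0.846). Its matrix match, in capitals with 15 bases on each side, is on the plus strand and holds 2 CpG, as the proximal control region match does.
Site at 32.5 kb: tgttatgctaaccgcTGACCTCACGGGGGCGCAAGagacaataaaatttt

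**Figure D3:**
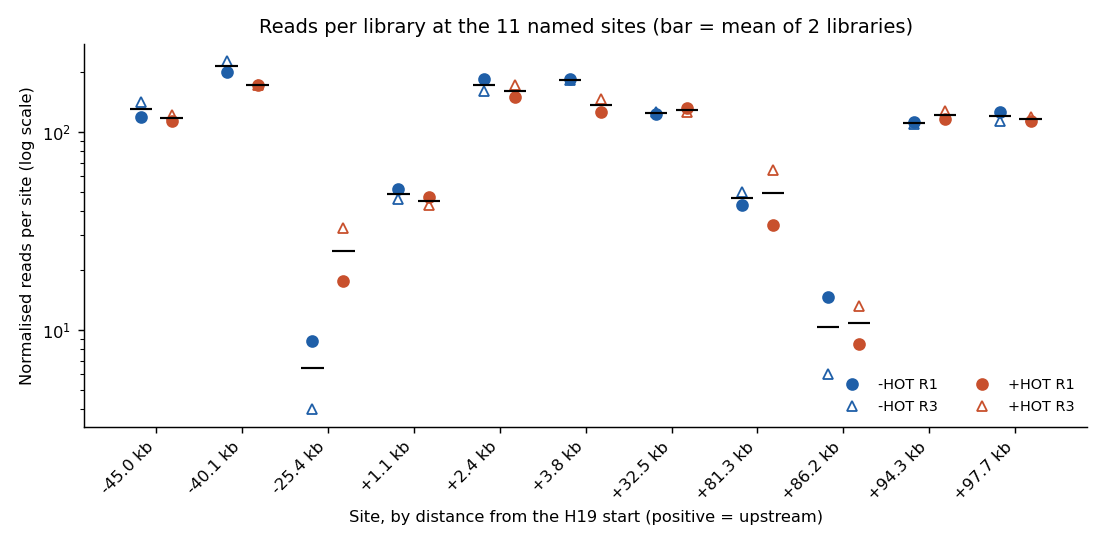
Normalised reads (log scale, vertical axis) in each library at the 11 named sites, ordered by distance from the H19 start (horizontal axis). Circles are R1 and triangles R3, blue is -HOT and red +HOT, and black bars are the means of 2 libraries. The site at 25.4 kb downstream rose from 6.40 to 25.2, and the distal control region site at 3.77 kb upstream fell from 184 to 136.

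The domain had 1 gained site, and it was a weak one in an intron of Nctc1 (chr7:149738427-149738794, 368 bp, centre 25.4 kb downstream of the H19 start and 5891 bp inside Nctc1). Nctc1 is transcribed across an enhancer of the domain that is active in muscle. The site held 8.83 (R1) and 3.98 (R3) normalised reads in -HOT, from 6 and 2 counted reads, against 17.6 (R1) and 32.8 (R3) in +HOT, from 27 and 42 reads. Both +HOT libraries were above both -HOT libraries, with R3 the lowest in -HOT and the highest in +HOT. Only the +HOT libraries reached the minimum of the count filter. The site thus entered the test through the group where it was high. The means were 6.40 ± 3.43 and 25.2 ± 10.7 (SD, n = 2 each), a log2FC of 1.85 (SE 0.49, 95% interval 0.87 to 2.84, edgeR adjusted p = 0.00463).

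Whether the site was called depended on the R3 libraries. Without -HOT R3 the log2FC was 1.46 (edgeR adjusted p = 0.074) and without +HOT R3 it was 1.37 (edgeR adjusted p = 0.209). The change was larger without the R1 libraries, at 2.59 without -HOT R1 (edgeR adjusted p = 0.0193) and 2.25 without +HOT R1 (edgeR adjusted p = 0.000312). DESeq2 gave the site no adjusted p because of its low counts. Of all tested sites 3.9% were gained, and 1 of 14 tested sites of the domain was. Its matrix match, on the plus strand and without CpG, is shown in capitals.
Gained site in Nctc1: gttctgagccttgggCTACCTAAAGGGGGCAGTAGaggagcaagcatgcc

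The other 2 sites in Nctc1 were also weak. At 28.0 kb downstream of H19 the reads were 29.4 and 13.9 in -HOT and 31.9 and 29.6 in +HOT, normalised (log2FC 0.44, 95% interval -0.23 to 1.11, edgeR adjusted p = 0.412). At 22.2 kb, in an exon of Nctc1, the counted reads were 3 and 4 in -HOT and 13 and 18 in +HOT, or 4.41, 7.96, 8.466 and 14.04 normalised reads, and the site was below the count filter and not tested. At all 3 Nctc1 sites both +HOT libraries were above both -HOT libraries, at 28.0 kb only just (29.64 against 29.42). This adds no support to the gain, since 1 of the 3 is the gained site. Of all tested sites, which leave out the site at 22.2 kb, 29.6% separated in this way.

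At Mrpl23, 1 site stood in a UTR at the start of the gene and another in an intron. The intron site (chr7:149723570-149724245, 40.1 kb downstream of the H19 start) was the strongest of the domain, stronger than 95.8% of all sites. It held 202 and 227 normalised reads in -HOT and 172 and 173 in +HOT, with no overlap (log2FC -0.30, SE 0.12, 95% interval -0.53 to -0.07, edgeR adjusted p = 0.0599). It passed the adjusted p with a replicate block (0.0401), with DESeq2 size factors (0.0431) and with a mean of at least 20 counts (0.028), all in edgeR, and with scaling along site strength the log2FC was -0.02 (edgeR adjusted p = 0.94). Its match, on the plus strand and with 1 CpG, had the highest score of the domain.
Mrpl23 intron site: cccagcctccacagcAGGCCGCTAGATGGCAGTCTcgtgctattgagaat

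The Mrpl23 promoter site (chr7:149718792-149719313, centre 135 bp inside the gene) was GC-rich, at 70.5% GC and 50 CpG against a median GC of 44.2% over all sites. It had no matrix match. The reads were 119 and 141 in -HOT and 114 and 122 in +HOT, normalised, and overlapped (log2FC -0.13, SE 0.15, 95% interval -0.43 to 0.17, edgeR adjusted p = 0.618). Its direction turned with scaling along site strength and GC content, to a log2FC of 0.42 (edgeR adjusted p = 0.0405). The remaining site on this side, 55.6 kb downstream of H19 and 10214 bp before Mrpl23, held 63.7 to 89.7 normalised reads in the 4 libraries (log2FC -0.13, edgeR adjusted p = 0.723).

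Igf2 (149836673 to 149852721, minus strand) overlapped 2 sites, and neither passed the test. The first (chr7:149845042-149845572) covers one of its start sites and the UTR, with 77.6% GC and 73 CpG, the most of any site of the domain. It held 42.7 and 49.8 normalised reads in -HOT and 33.9 and 64.0 in +HOT. Both -HOT values lay between the +HOT values (46.2 ± 5.02 and 48.9 ± 21.3, SD, n = 2 each, log2FC 0.07, SE 0.26, 95% interval -0.46 to 0.59, edgeR adjusted p = 0.908).

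The other Igf2 site (chr7:149850141-149850317, 177 bp) lay in an intron shared with the antisense gene Igf2as and was among the weakest of the domain. Its normalised reads were 14.7 and 5.97 in -HOT and 8.47 and 13.3 in +HOT, and the groups overlapped. The log2FC was -0.02 with a 95% interval from -1.18 to 1.13 (edgeR adjusted p = 0.985), so changes of either sign up to the fold threshold were not detectable. It had no matrix match.

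Ins2 (149864561 to 149885415, minus strand) had no site over it or within 3000 bp of any of its start sites. The nearest lay 2498 bp beyond its 3′ end (chr7:149861485-149862063, 97.7 kb upstream of H19, intergenic). It held 127 and 113 normalised reads in -HOT and 114 and 118 in +HOT. The groups overlapped (120 ± 9.23 and 116 ± 3.24, SD, n = 2 each, log2FC -0.06, SE 0.15, 95% interval -0.36 to 0.25, edgeR adjusted p = 0.854). Its match is on the minus strand, the strand of the control region copies, and holds 1 CpG.
Site between Igf2 and Ins2, 97.7 kb: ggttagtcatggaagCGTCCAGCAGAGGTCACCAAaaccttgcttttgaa

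A second strong site on this side (chr7:149857957-149858659, 94.3 kb upstream of H19, intergenic) held 112 and 109 normalised reads in -HOT and 117 and 128 in +HOT. Both +HOT libraries were above both -HOT libraries, by less than the test could show (log2FC 0.14, SE 0.15, 95% interval -0.17 to 0.45, edgeR adjusted p = 0.613). Its match is also on the minus strand and holds no CpG.
Site between Igf2 and Ins2, 94.3 kb: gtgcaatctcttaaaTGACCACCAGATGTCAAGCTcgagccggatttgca
The remaining 2 sites between Igf2 and Ins2 were weaker. At 93.1 kb the normalised reads were 19.1 and 41.8 in -HOT and 34.5 and 40.6 in +HOT (log2FC 0.37, edgeR adjusted p = 0.465), and at 95.5 kb, which was below the count filter, 5 to 16 reads were counted per library.

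**Figure D4:**
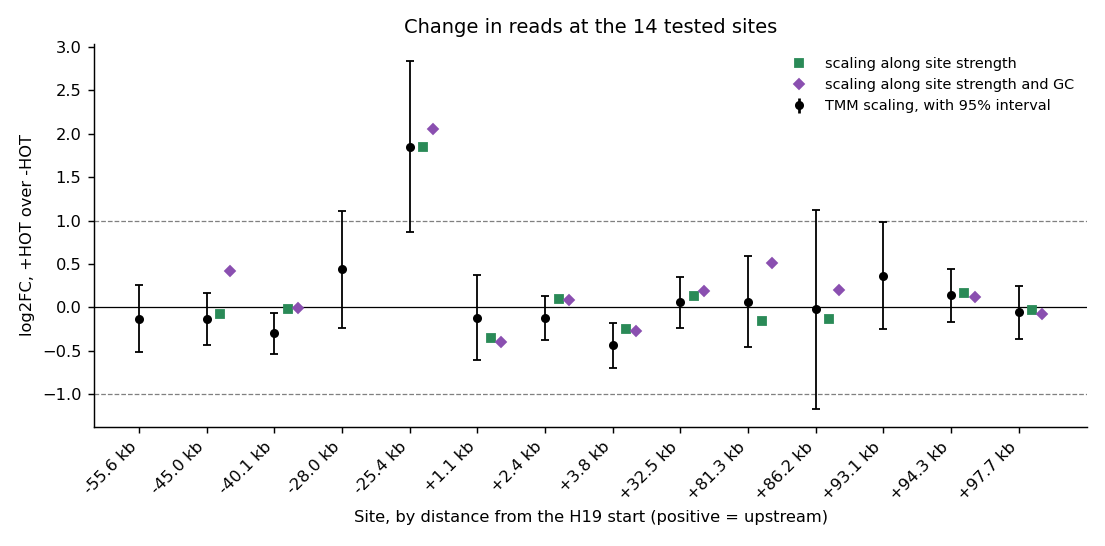
The log2FC (+HOT over -HOT, vertical axis) of the 14 tested sites by distance from the H19 start (horizontal axis). Black points and bars are the TMM-scaled edgeR fit and its 95% interval, and for the 11 named sites green squares and purple diamonds are the fits scaled along site strength and along site strength and GC content. Dashed lines mark the fold threshold of 1 and -1. The interval of the gained site runs from 0.87 to 2.84 and that of the distal control region site from -0.70 to -0.18.

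By strength, the order of the named sites in -HOT was the Mrpl23 intron site (214 ± 17.96), the distal (184 ± 0.528) and proximal (173 ± 16.01) control region sites, the Mrpl23 promoter site (130 ± 15.7), and the sites at 32.5 kb (125 ± 1.30), 97.7 kb (120 ± 9.23) and 94.3 kb (111 ± 1.64), all in normalised reads per whole site (SD, n = 2). Their lengths differed, from 522 to 954 bp, and a longer site can collect more reads. The control region sites had close means, as did the Mrpl23 promoter site and the sites at 32.5 and 97.7 kb. SDs of 2 libraries cannot decide the order among them. In +HOT the Mrpl23 intron site remained highest (173 ± 0.858). The distal control region site (136 ± 14.8) stood below the proximal one (161 ± 15.4) in both +HOT libraries, and this difference within +HOT was not tested.

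By CpG content, the control region sites differed from most of the domain. The ratio of observed to expected CpG was 0.598 at the proximal site and 0.521 at the distal site, with 37 and 21 CpG. The median over all sites of the table was 0.193. The sites at the starts of Mrpl23 and Igf2 had 0.835 and 0.928, and the weak site in the Igf2 intron had 0.835. The 3 other sites with values most like those of the proximal control region site over the 4 libraries (Euclidean distance of log2 normalised reads 0.0518 to 0.0657) were 1 on chromosome 8 near Mlf1ip, 1 on chromosome 7 near Nfatc2ip and 1 on chromosome 16 inside A630055G03Rik.

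Over the domain, 1 of 14 tested sites was gained and 0 were lost by edgeR (background 3.9% and 1.5%). The gained site passed the count filter through +HOT alone. At an unadjusted edgeR p below 0.05, 1 site was higher and 2 were lower, against 15.5% and 14.5% of all tested sites. DESeq2 called 0 of the 12 sites to which it gave an adjusted p, and over the table it called 2.82% gained and 1.21% lost. At the edgeR adjusted p with no fold threshold, 1 site was higher and 1 lower, against 9.45% and 9.08% of all tested sites. The number lower was 2 with the replicate block, with DESeq2 size factors and with a mean of at least 20 counts, and 0 with scaling along site strength. The groups did not overlap, with +HOT higher, at 4 of the 14 tested sites and, with +HOT lower, at 2, against 29.6% and 27.2% of all tested sites. The median log2FC was -0.04, and 0.01 over all tested sites.

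The neighbouring stretches of 200 kb were counted in the same way, and no difference between them and the domain was tested. Before the domain, 17 sites were tested, with 0 gained and 0 lost by edgeR and 0 called by DESeq2. At an unadjusted edgeR p below 0.05, 2 were higher and 4 lower, and the median log2FC was 0.00. Both +HOT libraries were higher at 5 sites and lower at 7. After it, 10 of 11 sites were tested, with 1 gained and 0 lost by edgeR and 0 called by DESeq2. At the same unadjusted p, 1 was higher and 5 lower, and the median log2FC was -0.22. Both +HOT libraries were higher at 1 site and lower at 6. Of all tested sites, 3.9% were gained and 1.5% lost by edgeR, and 15.5% were higher and 14.5% lower at the unadjusted p. Both +HOT libraries were higher at 29.6% of them and lower at 27.2%.

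Igf2 and the insulins act through receptors, substrates and binding proteins encoded elsewhere. The 17 genes searched were Igf1, Ins1, the receptors Igf1r, Igf2r and Insr, Irs1 and Irs2, and the Igfbp and Igf2bp families. Of these, Igf1 and Ins1 encode ligands, and the Igf2bp family encodes RNA-binding proteins. In all, 14 of the 17 genes had 30 sites within 3000 bp of a start site. By edgeR 0 were gained and 3 were lost, against 3.9% and 1.5% of all tested sites. At the adjusted p 0 were higher and 6 lower (9.45% and 9.08% of all), and at an unadjusted p below 0.05 0 were higher and 12 lower (15.5% and 14.5% of all). DESeq2 called 0 gained and 2 lost of the 20 with an adjusted p (2.82% and 1.21% of all). The median log2FC was -0.30, and 0.01 over all tested sites. All sites of this list lay near start sites, where the paper reports most of its lost CTCF sites. They were not compared with other promoter sites, so the shift cannot be called particular to these genes. Ins1, Irs2 and Igfbp2 had no such site.

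Each lost site was 1 of 3 or 4 promoter sites of its gene, and none was the strongest of them. At Irs1, which encodes an adaptor of both receptors, the lost site held 104 and 93.6 normalised reads in -HOT and 37.8 and 26.5 in +HOT. Its log2FC was -1.61 (SE 0.22, edgeR adjusted p = 1.22e-07). The strongest of the 4 Irs1 sites went from 192 ± 10.7 to 156 ± 20.3 (SD, n = 2 each, log2FC -0.30, edgeR adjusted p = 0.0858), and the other 2 did not pass the test either (log2FC -0.20 and -0.61, edgeR adjusted p = 0.343 and 0.446). At Insr, the insulin receptor, the lost site held 73.6 and 57.7 in -HOT and 28.0 and 15.6 in +HOT, with a log2FC of -1.58 (SE 0.27, edgeR adjusted p = 1.93e-05). The strongest of the 3 Insr sites held 90.8 ± 21.4 and 96.5 ± 6.30 (SD, n = 2 each, log2FC 0.06, edgeR adjusted p = 0.868), and the remaining one had a log2FC of -0.33 (edgeR adjusted p = 0.525). DESeq2 also called these Irs1 and Insr sites lost (DESeq2 adjusted p = 2.53e-05 and 0.00183), but not the lost site at Igf1r. At Igf1r, the IGF1 receptor, the lost site was weak, with 20.6 and 23.9 in -HOT and 5.86 and 9.36 in +HOT, with a log2FC of -1.54 (SE 0.50, edgeR adjusted p = 0.0216). Only its -HOT libraries reached the minimum of the count filter. It thus entered the test through the group where it was high. By far the strongest of the 3 Igf1r sites held 379 ± 5.00 and 324 ± 20.6 (SD, n = 2 each, log2FC -0.23, edgeR adjusted p = 0.061), and the remaining one had a log2FC of -0.76 (edgeR adjusted p = 0.255). The groups did not overlap at any of the lost sites, which adds no support, since the calls came from the same 4 libraries. Both +HOT libraries were below both -HOT libraries at 27.2% of all tested sites. The Igf1r call was lost with scaling along site strength and GC content (log2FC -1.14, edgeR adjusted p = 0.144) and without -HOT R1, -HOT R3 or +HOT R1 (edgeR adjusted p 0.123 to 0.214).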

How the data were processed

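CTCF ChIP-seq of 4 libraries was analysed (2 -HOT and 2 +HOT). Per the study's methods, the authors trimmed single-end reads, aligned them to mm9 with BWA, removed duplicates and blacklisted regions, and called peaks with MACS2, and they deposited a count of reads per site and library, not normalised. The columns show the group and the numbers R1 and R3, not the sample. Another 4 per-library columns with the authors' normalised values, and columns of their fold changes and p-values, were not used. The sites and gene lists were chosen with earlier results of these data known.

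Counts of all 104008 sites were fitted with edgeR 4.0.16 (quasi-likelihood test, TMM factors, filterByExpr at min.count 10, Benjamini-Hochberg adjustment over 99560 sites). The fit was also run on simulated counts with a common dispersion and no trend along site strength. These data do show such a trend, so that run does not bear on results that depend on the scaling. Sites were annotated with GENCODE vM1 on NCBIM37, which is mm9. Depth was 3126722 to 9280701 site reads per library. The coefficient of variation between libraries beyond counting error (square root of the edgeR common dispersion) was 0.0476. Weak sites vary more, through counting error. Named sites were both control region sites (centre 1500 to 5000 bp upstream of H19), sites over or within 3000 bp of a start of H19, Igf2 or Ins2, called sites, and the 5 strongest others. For the promoter list, up to 3 called sites with the smallest p were named. Single sums and ratios were tested by exact permutation over libraries. Alternatives were DESeq2 1.42.0, other scalings and filters, a replicate block and leaving out each library.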

Additional observations from a re-analysis of the deposited data

How the results depend on the processing

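The gained count was 1 and the lost count 0 under the other scalings, without the filter and with a replicate block (1 gained, 0 lost, log2FC of the gained site 1.81, edgeR adjusted p = 0.00211), and the replicate block changed no other gained or lost call. It took the Mrpl23 intron site past the adjusted p (0.0401 in edgeR), short of the fold threshold. R1 and R3 did not pair the libraries (r of replicate differences 0.0257 for the same number). The gained count was 0 with a mean of at least 20 counts, where the site was not tested, and 0 to 1 when leaving out each library in turn. The lost count was 0 when leaving out each library in turn, and 1 with no fold threshold (the distal control region site). With DESeq2 the gained site had no adjusted p, so no count is given. For the 11 named sites, the Ash2l site and the 3 sites of the promoter list, 155 of 172 values kept their direction and call. Direction turned at the Mrpl23 promoter with scaling along site strength and GC content (0.42), at the proximal control region site with scaling along site strength (0.09) and along site strength and GC content (0.081), and at the Igf2 start with scaling along site strength (-0.16). When leaving out each library, the log2FC ranged from -0.43 to 0.49 at the Igf2 start, from -0.46 to 0.82 at the Igf2 intron site and from -0.14 to 0.023 at the site 97.7 kb upstream. The Igf2 intron site was also positive with total counts (0.026) and with scaling along site strength and GC content (0.20). The log2 ratio of control region reads was -0.26, ran from -0.37 to -0.16 when leaving out each library and was -0.0541 with scaling along site strength. The window of 2000 to 4000 bp held the same sites. The difference in the share of reads in the domain ran from -0.00144 to 0.000723 percentage points when leaving out each library. At the threshold passed by 1% of shuffled sites, 9 sites of the domain had a matrix match, none of them a control region site, and 67.2% of all sites did. The cause of these changes was not tested.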

Other observations

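Input libraries were not used here, and reads were not corrected for copy number or open chromatin. The 2 libraries per group came from 1 cell line, and the smallest exact permutation p was 0.33. Counts at the weak sites were low, down to 2 reads in a library. Reads of the maternal and the paternal chromosome cannot be told apart, nor can the effects of the Ash2l deletion and of the proliferation stop.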
